A study of Mus musculus with 12 samples.

Results

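The 34 genes described here encode the proteins of blood coagulation and fibrinolysis. They were chosen by symbol from a list of clotting factors, fibrinogen chains, kininogens, anticoagulants, plasminogen and its regulators, and the enzymes of the vitamin K cycle, and all 34 were found among the 24537 genes of the deposited table. RNA-Seq was done on livers of 12 male C57Bl/6J mice that were 6 weeks old at the start and housed individually. Control mice (Con) ate the NIH41 diet ad libitum, and mice under caloric restriction (CR) received a fortified NIH41 diet with 30% fewer calories once a day. Each arm was sampled at day 25 and at day 30, with 3 mice in each of the 4 groups, and the study's methods describe heavy water labelling in every group before collection. The comparisons asked whether the mRNA of these genes differed between CR and Con at either day, and between the days.

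Coagulation runs through serine proteases that circulate as zymogens and activate each other in turn. Tissue factor starts the cascade with factor VII, thrombin cuts fibrinogen to fibrin, and factor XIII crosslinks the clot. Antithrombin, heparin cofactor II, the protein C system and tissue factor pathway inhibitor restrain it, and plasmin dissolves fibrin. Hepatocytes secrete most of these proteins, and several need gamma-carboxylation, a modification that consumes reduced vitamin K. Factor VIII, von Willebrand factor, thrombomodulin and tissue plasminogen activator come mainly from endothelial cells, and the A subunit of factor XIII from megakaryocytes and macrophages.

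Levels are given as FPKM, the name of the deposited unit, which counts on a gene's exons per kilobase of exon and is scaled to the size of the library. Libraries held 15748755 to 23345443 reads, as recovered from the steps between low FPKM values. Each library's mean correlation with the others of its group was 0.985 or higher. Hepatocyte markers summed to 47731 to 79608 FPKM per liver (7 genes, Alb and Ahsg among them), against 48.0 to 74.3 FPKM for 10 endothelial markers, 26.3 to 69.8 FPKM for 8 macrophage markers and 1.27 to 2.93 FPKM for 8 platelet markers. Of the platelet markers, Gp9 was listed at 0 in 7 libraries and Gp6 in 11. In whole liver, fewer cells of a type and less RNA per cell cannot be told apart. Mice are numbered as in the deposited table (Con7 to Con9 and CR7 to CR9 at day 25, Con10 to Con12 and CR10 to CR12 at day 30).

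Several of the genes that passed sit in small clusters of related genes, and the sequences just upstream of 5 start sites in such clusters are shown first. The fibrinogen cluster is shown because its chains form 1 protein and 2 of them passed the test over both days. Hrg and Kng2 are shown because they are neighbours that both rose. Each line holds the 250 bases upstream of the transcription start of a gene, 5′ to 3′ on the strand of the gene, from RefSeq promoters of mm10. Capitals mark matches, on either strand, to TTGCNNAA (C/EBP, leucine zipper factors of the liver) and to TTCNNNGAA (STAT factors, which act below the interleukin-6 receptor). TATAAA was also searched and is in none of these 5 windows.
Fga (chr3:83025903-83026152, plus strand): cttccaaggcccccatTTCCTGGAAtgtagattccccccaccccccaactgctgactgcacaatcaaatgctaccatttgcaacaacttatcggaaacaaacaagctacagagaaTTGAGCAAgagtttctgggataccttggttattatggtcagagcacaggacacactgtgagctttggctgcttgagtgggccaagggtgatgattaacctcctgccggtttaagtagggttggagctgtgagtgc
Fgb (chr3:83049864-83050113, minus strand): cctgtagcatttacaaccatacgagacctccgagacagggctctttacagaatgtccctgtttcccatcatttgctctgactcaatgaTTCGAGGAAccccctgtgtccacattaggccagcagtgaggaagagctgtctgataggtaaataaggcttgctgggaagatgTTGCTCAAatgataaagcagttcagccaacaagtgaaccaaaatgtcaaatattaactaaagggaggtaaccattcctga
Fgg (chr3:83007474-83007723, plus strand): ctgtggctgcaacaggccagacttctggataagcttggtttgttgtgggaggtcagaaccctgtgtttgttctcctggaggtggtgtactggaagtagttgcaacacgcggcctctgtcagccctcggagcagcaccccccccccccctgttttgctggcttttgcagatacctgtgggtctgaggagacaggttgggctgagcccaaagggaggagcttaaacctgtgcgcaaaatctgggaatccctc
Hrg (chr16:22950822-22951071, plus strand): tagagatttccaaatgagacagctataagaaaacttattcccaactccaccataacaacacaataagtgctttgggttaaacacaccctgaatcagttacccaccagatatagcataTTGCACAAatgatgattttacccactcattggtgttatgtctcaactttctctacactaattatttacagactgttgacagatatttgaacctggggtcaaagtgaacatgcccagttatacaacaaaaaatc
Kng2 (chr16:23029102-23029351, minus strand): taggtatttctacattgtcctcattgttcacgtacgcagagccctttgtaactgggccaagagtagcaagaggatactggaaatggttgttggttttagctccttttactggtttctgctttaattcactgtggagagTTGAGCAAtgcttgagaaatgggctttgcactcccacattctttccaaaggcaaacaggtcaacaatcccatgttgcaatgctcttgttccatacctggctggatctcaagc

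Counted from the start site, Fga held a STAT match at -234 and a C/EBP match at -135. Fgb held the same kinds of match in the same order, at -162 and -80. Fgg held none of the 3 motifs in its window. Hrg and Kng2 each held 1 C/EBP match, at -133 and -112. Promoters of the same length were found for 26 of the 34 genes, and those of Plg, Kng1, Proc, Serpina10, Thbd, Vwf, Plau and Plat were not analysed here. Of the 26, 8 held a C/EBP match, against 9.56% of 32851 mouse promoters and 7.97% of the 8160 promoters of genes tested here. The 8 were Fga, Fgb, Hrg, Kng2, Ggcx, Klkb1, F9 and F11, of which Fgb, Klkb1, F9 and F11 passed no CR against Con test of the main model. The windows of F7 and F10, a further cluster, and of F3 and Serpinf2 are not shown. These genes passed in some comparison, and their windows held none of the 3 motifs. STAT matches were in 4 of the 26 (7.02% of all promoters) and TATAAA in 1 (12.4%). The median GC content of the 26 windows was 49.2% with 3 CpG dinucleotides, against 60.0% and 16 for the tested genes. F3 (70.0% GC, 24 CpG), Pros1 (64.4% GC, 15 CpG) and Ggcx (61.2% GC, 18 CpG) stood at the upper end. A match is a string of letters and no evidence that a factor bound there.

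In every library the 34 genes together took 2.28% to 2.51% of the summed FPKM. Their levels spanned from 1690 FPKM for Fgb, the fibrinogen beta chain, to 0.0176 FPKM for F13a1, the A subunit of factor XIII (means over the 12 livers). The 3 fibrinogen chains made up 34.9% to 44.8% of the FPKM of the list. Plg (plasminogen, 906 FPKM), Serpinc1 (antithrombin, 821), Hrg (histidine-rich glycoprotein, 779), F2 (prothrombin, 739) and Kng1 (kininogen 1, 737) followed. Ggcx, the gamma-glutamyl carboxylase, stood at 14.5 FPKM and Pros1, protein S, at 16.0.

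F3 (tissue factor) had a mean of 1.54 FPKM, F8 (factor VIII) 1.38 and Tfpi (tissue factor pathway inhibitor) 0.792. Under the filter of at least 1 FPKM in at least 3 livers, 29 of the 34 genes were tested. The 5 left out were Thbd (thrombomodulin, mean 0.609 FPKM), Vwf (von Willebrand factor, 0.510), Plau (urokinase, 0.415), Plat (tissue plasminogen activator, 0.116) and F13a1. F13a1 rested on 0 to 5 reads per library and Plat on 1 to 12, while Fgb rested on 46419 to 67293.

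**Figure D1:**
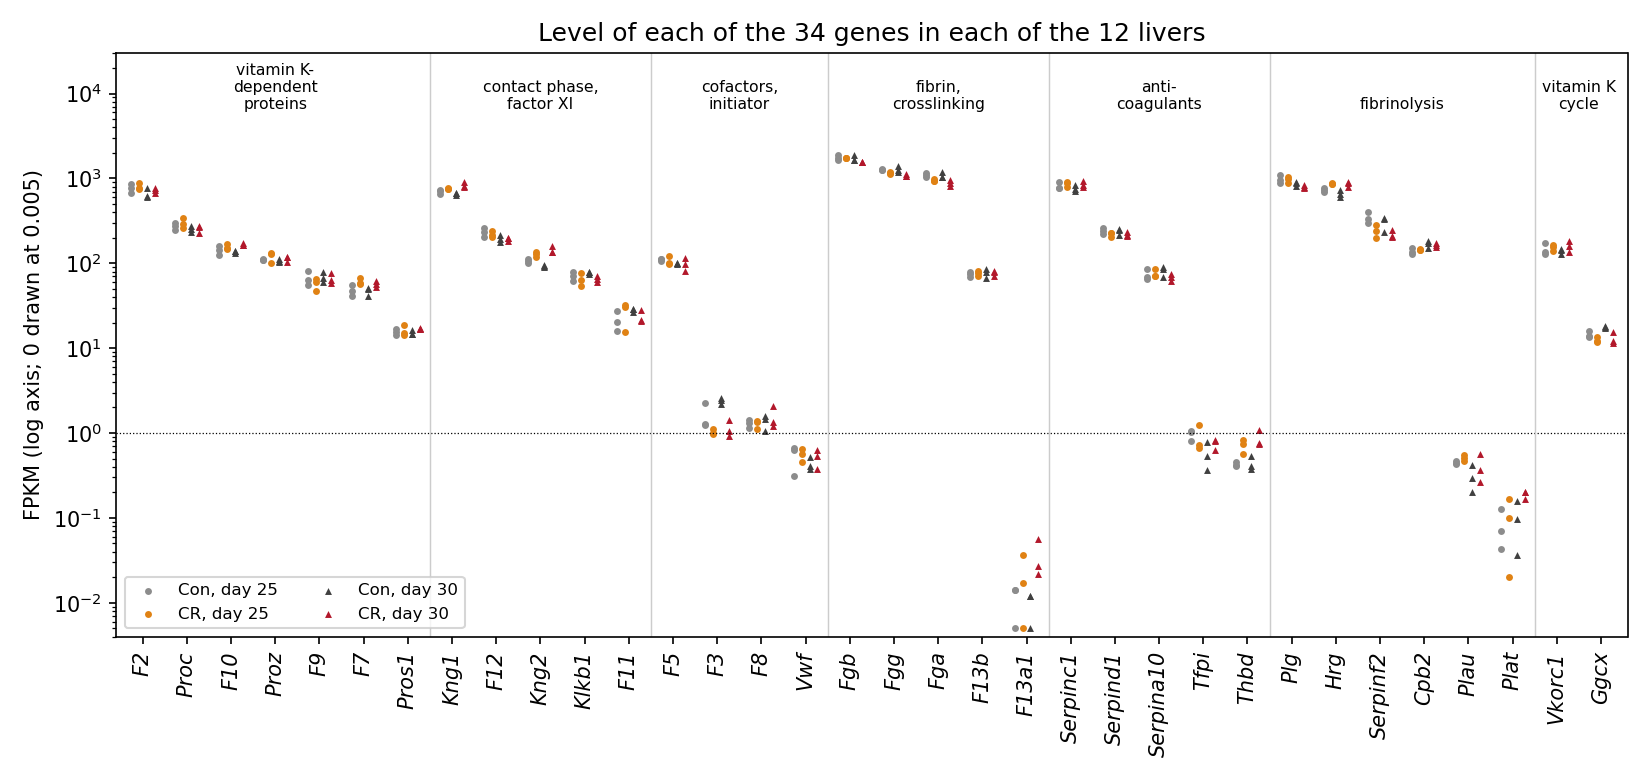
Level of each of the 34 genes in each of the 12 livers, in FPKM on a log axis, ordered by role and by mean level. Points are single mice, the dotted line marks 1 FPKM and zeros are drawn at 0.005; the liver-made factors lie between 10 and 2000 FPKM, and F3, F8, Vwf, Tfpi, Thbd, Plau, Plat and F13a1 lie under 3 FPKM in every liver.

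Between CR and Con at day 25, 1 gene of the 29 passed an adjusted p of 0.1 with limma, which is 3.45% against 14.9% of the 10593 genes tested (5.6% higher and 9.34% lower). It was Serpinf2, the plasmin inhibitor alpha-2-antiplasmin, which fell. The other 28 genes did not pass, and the smallest adjusted p among them was that of F7 (0.128). No gene of the list passed with a 2-fold change, against 1.48% of all genes, and voom on recovered reads gave 0 as well. At an unadjusted p under 0.05 there were 5 genes (F7, Kng2, F3, Serpinf2 and Hrg), against 24.9% of all genes. The median log2 fold change of the 29 genes was 0.02, beside -0.04 over all genes tested, and the median absolute change was 0.12 beside 0.16.

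Between CR and Con at day 30, 8 of the 29 genes passed, 27.6% against 24.7% of all genes tested, a share near the background. Kng1, Kng2, Hrg and F10 rose, and F3, Fga, Serpinf2 and Ggcx fell. The background was uneven in direction, with 8.33% of all genes higher and 16.4% lower. The share of all calls that were higher was 33.7% as scaled by the authors and 51.8% with median-ratio scaling, and at day 25 it was 37.5% and 54.0%. None of the 29 passed with a 2-fold change, against 2.21% of all genes. With voom on recovered reads, or with a pseudocount of 0.1 in place of 1, F3 did so. The median log2 fold change of the list was -0.01, beside -0.07 over all genes, and the median absolute change was 0.17 beside 0.19. Among genes with a mean of at least 50 FPKM, 34% of 988 passed at day 30, and 6 of the 23 genes of the list at that level.

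Over both days, with 6 CR and 6 Con mice and day as a covariate, 10 of 29 genes passed, 34.5% against 40.6% of all genes tested. F7 joined the genes that rose and Fgg those that fell, so that 5 rose and 5 fell. All genes tested split into 14.5% higher and 26.1% lower. None of the 29 passed with a 2-fold change, against 1.66% of all genes. CR and Con mice did not overlap for 9 of the 29 genes at day 25 (28.2% of all genes tested) and for 12 at day 30 (36.4%). For 1 gene at a single day, with 3 mice in each arm, permuting the mice exactly gives no p under 0.1. Each adjusted p of a single day therefore rests on the spread that limma shares across genes.

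**Figure D2:**
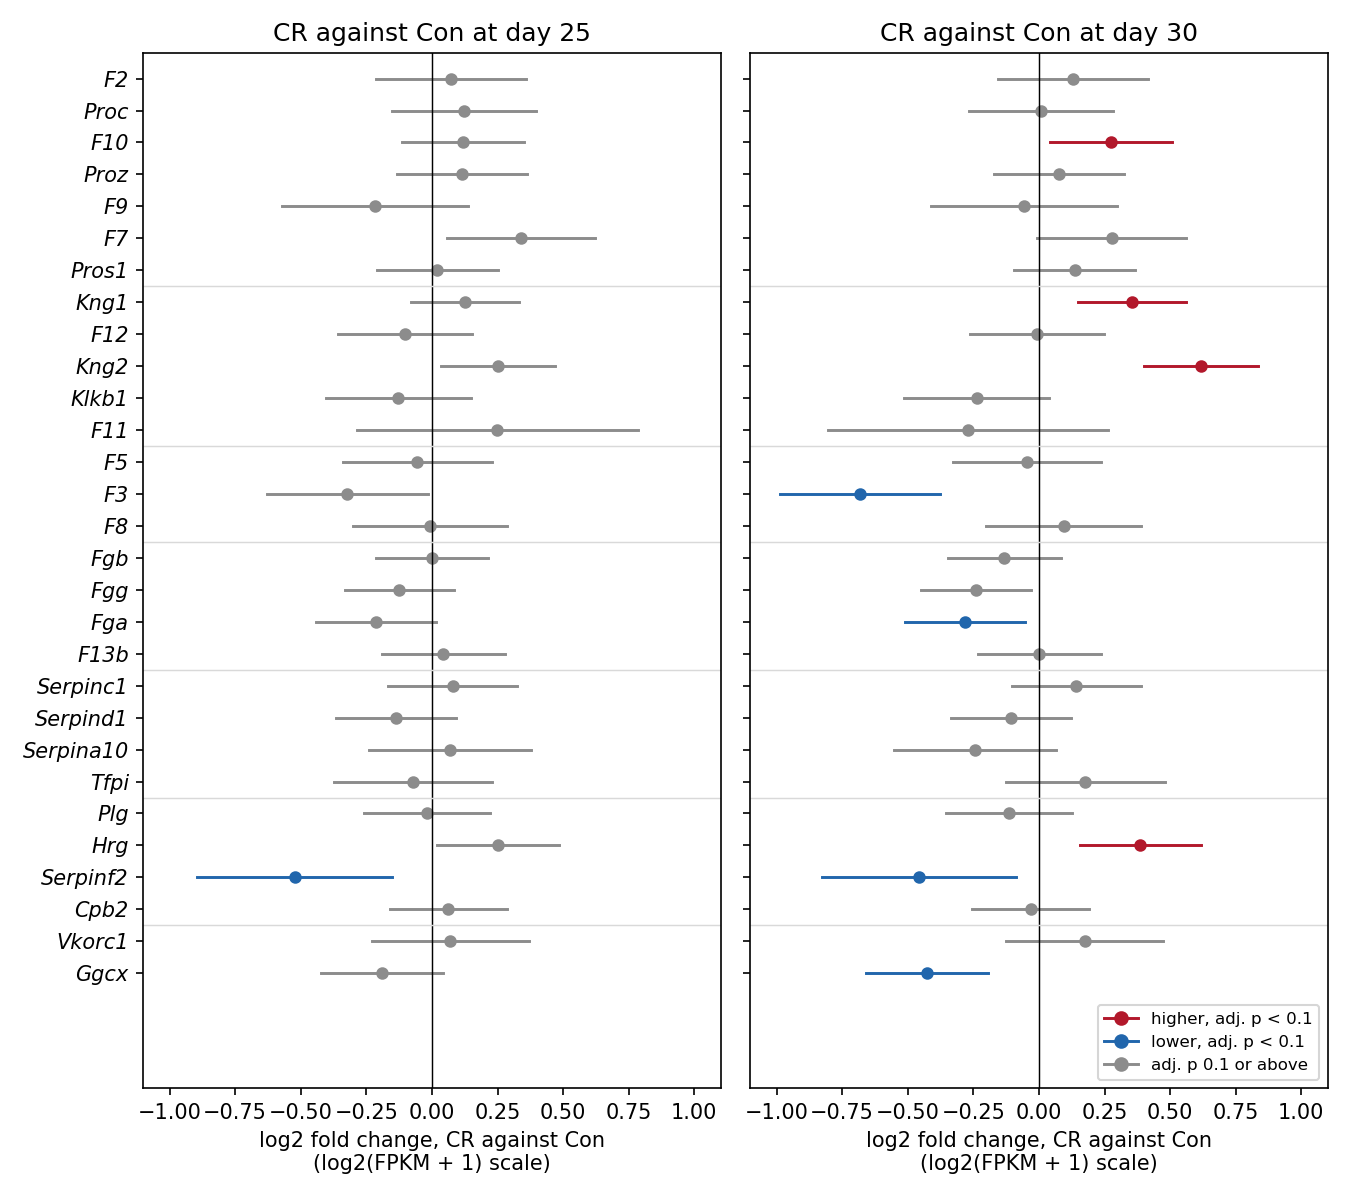
Log2 fold change of CR against Con at day 25 and day 30 for the 29 tested genes, on the log2(FPKM + 1) scale, ordered by role as in the plot of levels. Points are estimates and bars their 95% confidence intervals; Serpinf2 is the gene past adjusted p 0.1 at day 25, and 4 genes are higher and 4 lower at day 30.

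Among the contact phase genes, both kininogens rose at day 30 while the proteases did not pass the test. Kininogens carry bradykinin and hold plasma prekallikrein and factor XI on surfaces. Kng2 (chr16:22985852-23029101, minus strand) measured 93.3, 91.3 and 94.8 FPKM in the Con mice of day 30 and 160, 135 and 137 FPKM in the CR mice. Its lowest CR mouse lay well above its highest Con mouse. The log2 fold change was 0.62 ± 0.10 (SE), or 1.53-fold, with an adjusted p of 0.00184 by limma. Kng2 kept its place past the threshold in all 11 other settings and without each of the 12 mice.

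For Kng2 at day 25 the values were 101, 113 and 107 FPKM in Con and 130, 119 and 136 FPKM in CR mice. The groups again did not overlap, but the gap was narrower, with a log2 fold change of 0.25 ± 0.10 (SE) and an adjusted p of 0.138 by limma. The difference between the days, 0.37 on the log2 scale with a 95% interval of 0.06 to 0.67, had an unadjusted p of 0.023 in limma and did not pass after adjustment.

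Kng1 (chr16:23058300-23082078, plus strand) was more abundant and moved less. Its FPKM was 664, 638 and 666 in Con mice at day 30 and 911, 800 and 813 in CR mice. The groups were apart, and the log2 fold change was 0.36 ± 0.09 (SE, adjusted p = 0.0243 by limma). Without CR10, the mouse with 911 FPKM, the adjusted p was 0.102. Kng1 at day 25 read 656, 724 and 702 FPKM in Con and 762, 751 and 759 FPKM in CR mice, again without overlap, for a log2 fold change of 0.13 ± 0.09 (SE, adjusted p = 0.449).

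The ratio of Kng1 to Kng2 within a liver was 6.38 to 6.56 in Con and 5.60 to 6.32 in CR mice at day 25. At day 30 it was 6.99 to 7.12 in Con and 5.71 to 5.94 in CR mice. It was lower in every CR mouse than in any Con mouse of the same day. This ratio was computed after the values were seen and was not tested. The kininogen transcripts are similar, with 7.49% of the 100-base windows of Kng1 also found in Kng2 and 8.38% the other way, so a part of their reads cannot be assigned to either with certainty.

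The remaining contact genes were F12 (factor XII, which starts this phase), Klkb1 (plasma prekallikrein) and F11 (factor XI). F12 had means of 235 and 218 FPKM in Con and CR mice at day 25 and 196 and 195 FPKM at day 30. Klkb1 at day 30 was 78.4, 78.3 and 75.0 FPKM in Con and 60.6, 70.5 and 65.3 FPKM in CR mice, without overlap. Its log2 fold change of -0.24 ± 0.13 (SE) did not pass (adjusted p = 0.221 by limma), and 43.2% of its exon bases also lie in the annotated gene Gm45753. Over both days Klkb1 did not pass either (adjusted p = 0.126 by limma). It did pass over both days in some alternatives, among them quantile normalization, voom, and the fits without Con9 or CR7. F11, the least abundant, varied most. Its FPKM was 27.4, 20.2 and 16.1 in Con and 30.5, 32.5 and 15.4 in CR mice at day 25, then 26.8, 29.0 and 29.1 in Con and 21.4, 28.0 and 20.9 in CR mice at day 30. The groups of F11 overlapped at both days, and the interval of its log2 fold change at day 30 ran from -0.81 to 0.26.

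Hrg, the histidine-rich glycoprotein that binds plasminogen, fibrinogen and heparin, lies beside the kininogens and rose with them at day 30. Hrg (chr16:22951072-22961659, plus strand) read 649, 598 and 732 FPKM in Con and 904, 788 and 893 FPKM in CR mice at day 30. The groups were separate, and the log2 fold change was 0.39 ± 0.11 (SE, adjusted p = 0.0281 by limma). Without CR10 the adjusted p was 0.103. At day 25, Hrg measured 695, 766 and 723 FPKM in Con and 860, 862 and 879 FPKM in CR mice. The CR mice were tightly grouped above the Con mice, and the log2 fold change of 0.25 ± 0.11 (SE) had an adjusted p of 0.164. Over both days it was 0.32 ± 0.07 (SE, adjusted p = 0.00618).

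Hrg, Kng2 and Kng1 span 131 kb of chromosome 16 with no other listed gene between them. Within 100 kb on either side, 8 other genes were tested and 1 passed at day 30. That gene was Dnajb11, a chaperone of the endoplasmic reticulum, which fell (log2 fold change -0.66 ± 0.13 SE, adjusted p = 0.00606 by limma). Fetub and Ahsg, the fetuins of the same cystatin family, had log2 fold changes of 0.20 ± 0.11 and 0.13 ± 0.11 (SE) and did not pass. These neighbours were named after their values were seen.

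**Figure D3:**
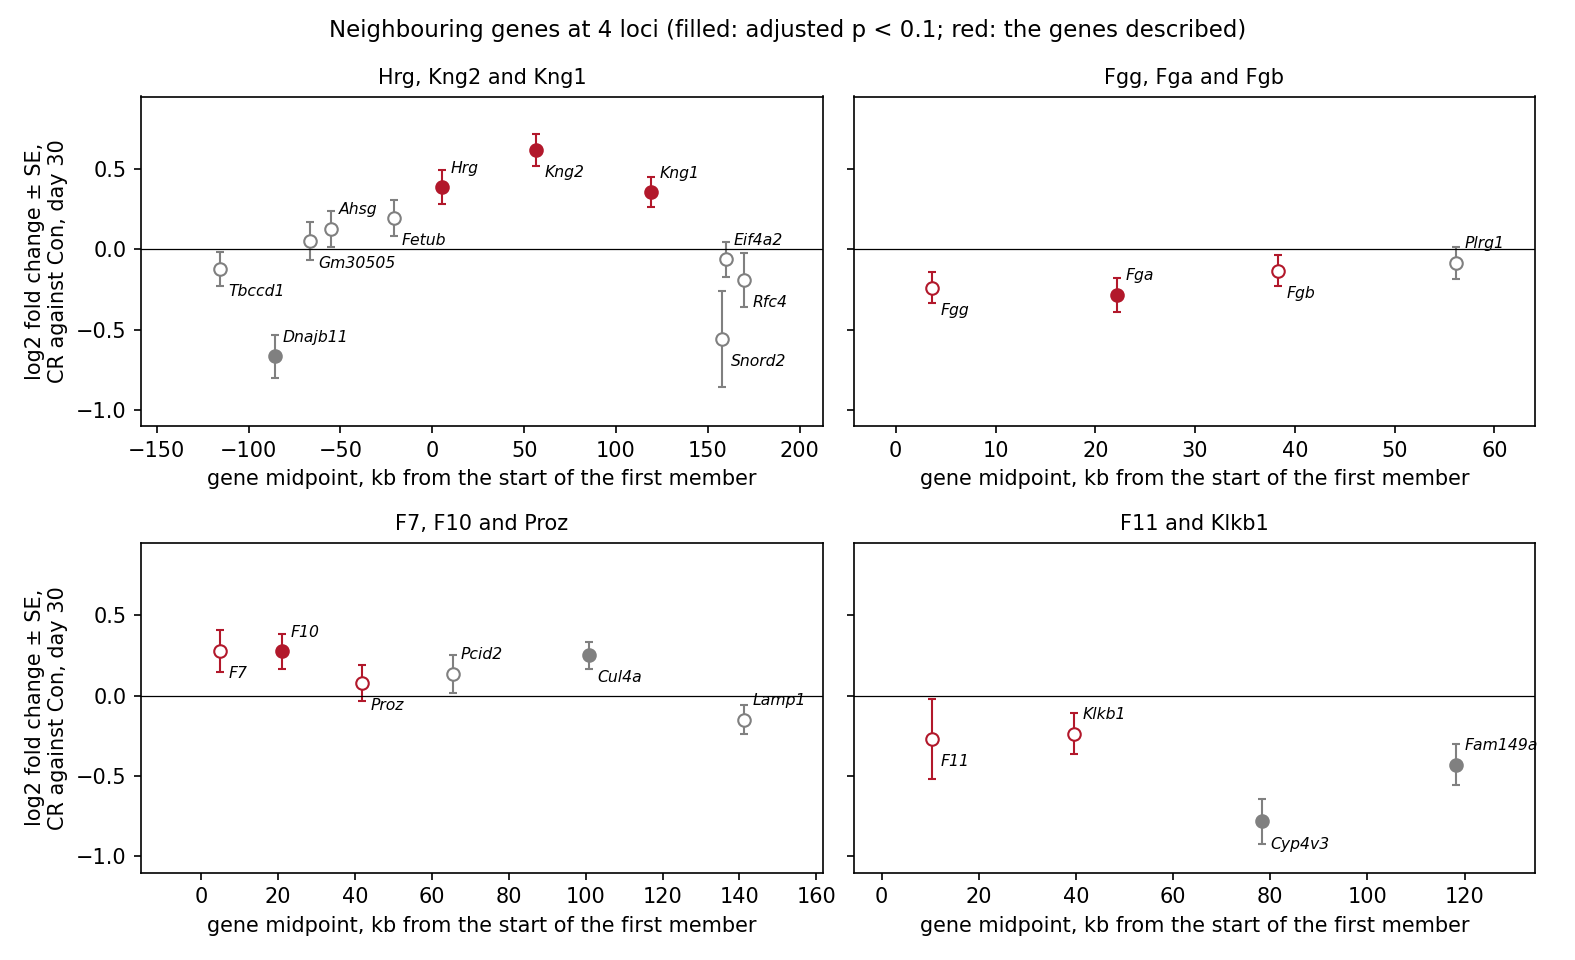
Log2 fold change with SE of CR against Con at day 30 for tested genes within 100 kb of 4 clusters, plotted against the distance in kb of the gene's midpoint from the start of the first listed gene. Red marks the coagulation genes, grey their neighbours and filled points those past adjusted p 0.1. Hrg, Kng2 and Kng1 stand between 0.36 and 0.62, and the neighbours Fetub and Ahsg at 0.20 and 0.13. The neighbours past the threshold are Cul4a (0.25) beside F10, Dnajb11 (-0.66) beside Hrg, and Cyp4v3 (-0.78) and Fam149a (-0.43) beside Klkb1.

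Of the fibrinogen chains, whose genes share 42.1 kb of chromosome 3, Fga passed at day 30 and Fga and Fgg over both days, and a difference between the chains was not tested. Fibrinogen holds a pair each of alpha, beta and gamma chains. Fga (alpha chain, chr3:83026153-83033617, plus strand) measured 1031, 1178 and 1032 FPKM in Con and 812, 970 and 883 FPKM in CR mice at day 30. No CR mouse reached the lowest Con mouse, and the log2 fold change was -0.28 ± 0.11 (SE, adjusted p = 0.0856 by limma). At day 25 the values of Fga were 1042, 1153 and 1094 FPKM in Con and 974, 937 and 924 FPKM in CR mice. The groups did not overlap there either, and the log2 fold change was -0.21 ± 0.11 (SE, adjusted p = 0.230). Over both days Fga fell by 0.25 on the log2 scale (SE 0.07, adjusted p = 0.0191). The call at day 30 was lost without any one of 8 of the 12 mice and in 5 of 11 other settings, with adjusted p up to 0.271, while the call over both days was lost with quantile normalization only (adjusted p = 0.111).

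Fgg (gamma chain, chr3:83007724-83015056, plus strand) was 1239, 1399 and 1199 FPKM in Con and 1077, 1113 and 1055 FPKM in CR mice at day 30. These groups did not overlap, but the log2 fold change of -0.24 ± 0.10 (SE) missed the threshold (adjusted p = 0.110 by limma). At day 25 Fgg read 1252, 1275 and 1258 FPKM in Con and 1161, 1112 and 1202 FPKM in CR mice, also without overlap, with a log2 fold change of -0.12 ± 0.10 (SE). It passed over both days (-0.18 ± 0.07 SE, adjusted p = 0.0542). That call was lost without Con11 or CR12 and in 3 of 10 other settings, with adjusted p up to 0.232.

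Fgb (beta chain, chr3:83042246-83049863, minus strand) was 1627, 1862 and 1748 FPKM in Con and 1760, 1739 and 1729 FPKM in CR mice at day 25. The CR mice lay inside the range of the Con mice. At day 30 it was 1650, 1861 and 1625 FPKM in Con and 1557, 1575 and 1548 FPKM in CR mice, the CR mice all lower. Its log2 fold changes were 0.00 (95% interval -0.21 to 0.21) and -0.13 (-0.35 to 0.08), with adjusted p of 0.999 and 0.382 by limma.

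The ratio of Fgb to Fga within a liver separated CR from Con at both days. It was 1.56 to 1.61 in Con and 1.81 to 1.87 in CR mice at day 25, and 1.57 to 1.60 in Con and 1.62 to 1.92 in CR mice at day 30. The ratio of Fgb to Fgg overlapped at day 25 (1.30 to 1.46 in Con and 1.44 to 1.56 in CR mice) and was apart at day 30 (1.33 to 1.36 and 1.42 to 1.47). A ratio within a library does not depend on how libraries are scaled against each other. Both were computed after the values were seen and were not tested.

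**Figure D4:**
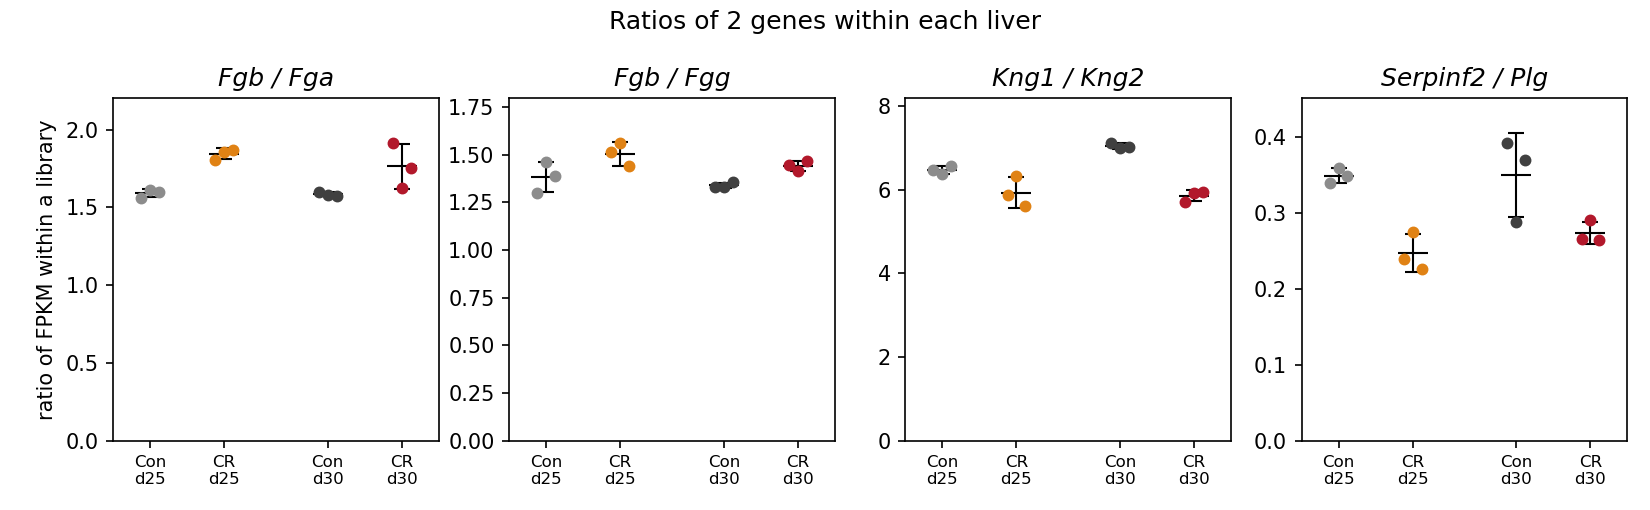
Ratio of the FPKM of 2 genes within each liver, for Fgb to Fga, Fgb to Fgg, Kng1 to Kng2 and Serpinf2 to Plg. Points are mice, and bars the mean and SD of the 3 mice of a group; in Con mice Fgb to Fga stays between 1.56 and 1.61, and every CR mouse is above that.

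F13b (the carrier subunit of factor XIII) did not pass the test, with group means between 74.1 and 77.1 FPKM and a 95% interval of the log2 fold change of -0.19 to 0.28 at day 25 and -0.23 to 0.24 at day 30. F13a1, its catalytic partner, was listed at 0.014, 0.014 and 0 FPKM in Con and 0.037, 0.017 and 0 in CR mice at day 25. Day 30 gave 0, 0.012 and 0.012 in Con and 0.022, 0.027 and 0.056 in CR mice. At 5 reads or fewer per library no difference was detectable at this depth.

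In fibrinolysis, the inhibitor of plasmin fell while plasminogen itself did not pass the test. Serpinf2 (chr11:75431736-75439501, minus strand) was the only gene of the list past the threshold at both days. It measured 302, 397 and 334 FPKM in Con and 237, 283 and 200 FPKM in CR mice at day 25. The groups were apart, with a log2 fold change of -0.52 ± 0.17 (SE), 0.696-fold, and an adjusted p of 0.0766 by limma. At day 30 the values were 343, 236 and 333 FPKM in Con and 210, 244 and 204 FPKM in CR mice. Here Con11, with 236 FPKM, lay within the CR range, and the log2 fold change was -0.46 ± 0.17 (SE, adjusted p = 0.0871). Over both days Serpinf2 fell by 0.49 on the log2 scale (SE 0.12, adjusted p = 0.00708), a call kept in all 10 other settings and without each of the 12 mice. The separate calls were weaker, since that of day 25 was lost without Con8, Con9, CR7 or CR9 (adjusted p up to 0.245) and that of day 30 without any one of 6 mice (up to 0.236) and in 4 of 11 other settings.

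Plg read 889, 1107 and 962 FPKM in Con and 989, 1033 and 888 FPKM in CR mice at day 25, then 876, 822 and 904 in Con and 791, 839 and 771 in CR mice at day 30. Its groups overlapped at both days, and the log2 fold changes of -0.02 (95% interval -0.26 to 0.22) and -0.12 (-0.36 to 0.12) did not pass. The ratio of Serpinf2 to Plg was 0.339 to 0.359 in Con and 0.225 to 0.274 in CR mice at day 25, without overlap. At day 30 it was 0.287 to 0.392 in Con and 0.264 to 0.290 in CR mice, where Con11 overlapped the CR mice. Of the exon bases of Plg, 15.2% also lie under Slc22a3 on the other strand, and whether counting used strand is not given in the sources used here.

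Cpb2, the carboxypeptidase that protects fibrin from plasmin (TAFI), had means of 139 and 145 FPKM in Con and CR mice at day 25 and 168 and 164 FPKM at day 30. The plasminogen activators were low. Plau lay between 0.201 and 0.570 FPKM in all livers. Plat was 0.128, 0.043 and 0.070 FPKM in Con and 0.167, 0.10 and 0.020 FPKM in CR mice at day 25. At day 30 Plat was 0.096, 0.037 and 0.157 FPKM in Con and 0.203, 0.203 and 0.169 FPKM in CR mice, above all Con mice but on at most 12 reads. With no filter on low values, its adjusted p at day 30 was 0.196.

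Of the 7 vitamin K-dependent zymogens and cofactors, the linked pair F7 and F10 passed in some comparison of the main model and the other genes did not. In other settings, Proz passed over both days with median-ratio scaling. F7 encodes the protease that tissue factor switches on, and F10 the protease that forms thrombin. F10 (chr8:13037308-13056676, plus strand) measured 132, 141 and 141 FPKM in Con and 173, 165 and 164 FPKM in CR mice at day 30. All CR mice were above all Con mice, and the log2 fold change was 0.28 ± 0.11 (SE, adjusted p = 0.0982 by limma). At day 25 F10 was 126, 161 and 145 FPKM in Con and 151, 170 and 146 FPKM in CR mice, with overlap and a log2 fold change of 0.12 ± 0.11 (SE). The call of F10 at day 30 lay just inside the threshold. It was lost in 5 of 11 other settings and without any one of 9 of the 12 mice (adjusted p up to 0.240), and its call over both days (0.20 ± 0.08 SE, adjusted p = 0.0623) without any one of 6 mice (up to 0.130) and with quantile normalization (0.148).

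F7 (chr8:13026034-13035805, plus strand) was apart between the arms at both days. It measured 41.0, 55.4 and 47.7 FPKM in Con and 56.8, 66.8 and 58.5 FPKM in CR mice at day 25. Day 30 gave 51.0, 40.6 and 49.7 FPKM in Con and 62.0, 56.3 and 53.0 FPKM in CR mice. The log2 fold changes were 0.34 ± 0.13 and 0.28 ± 0.13 (SE), with adjusted p of 0.128 and 0.166 by limma. With the replicate block at day 25 the adjusted p was 0.0790 by limma, which makes F7 a second call at that day in that setting. Over both days F7 rose (0.31 ± 0.09 SE, adjusted p = 0.0185), and this held in the 10 other settings and without each of the 12 mice.

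Proz, the cofactor of the protein Z-dependent inhibitor and the next gene downstream of F10, had log2 fold changes of 0.11 ± 0.11 and 0.08 ± 0.11 (SE) at day 25 and day 30. The 3 genes span 49.0 kb of chromosome 8. Of their 3 other tested neighbours, Cul4a passed at day 30 (0.25 ± 0.08 SE, adjusted p = 0.0614 by limma), named here after its values were seen.

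F2, prothrombin, measured 670, 858 and 763 FPKM in Con and 763, 878 and 759 FPKM in CR mice at day 25. It measured 771, 608 and 618 FPKM in Con and 772, 740 and 664 FPKM in CR mice at day 30. The groups overlapped, and neither log2 fold change (0.07 and 0.13, SE 0.13 each) passed. Pros1, the least abundant of these genes, was 15.5, 17.0 and 14.2 FPKM in Con and 18.5, 14.9 and 14.2 FPKM in CR mice at day 25. Day 30 gave 14.9, 14.8 and 16.5 FPKM in Con and 17.1, 16.9 and 17.0 FPKM in CR mice, apart but with a log2 fold change of 0.14 ± 0.11 (SE, adjusted p = 0.398 by limma). Proc (the anticoagulant protease protein C) and F9 (factor IX) overlapped between the arms at both days, with log2 fold changes of 0.12 and 0.01 for Proc and -0.22 and -0.06 for F9.

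The vitamin K cycle supplies these proteins with their modification, and its carboxylase fell at day 30. Ggcx (chr6:72414308-72431106, plus strand) measured 17.9, 18.1 and 17.4 FPKM in Con and 11.6, 15.4 and 12.2 FPKM in CR mice at day 30. All CR mice were below all Con mice, and the log2 fold change was -0.43 ± 0.11 (SE, adjusted p = 0.0194 by limma). This call was kept in all 11 other settings and without each of the 12 mice. At day 25 Ggcx read 13.9, 15.7 and 13.7 FPKM in Con and 13.5, 12.1 and 11.9 FPKM in CR mice. Those groups were close but did not overlap, and the log2 fold change was -0.19 ± 0.11 (SE, adjusted p = 0.293). The Con mice of day 30 stood above those of day 25, a log2 difference of 0.29 with an unadjusted p of 0.020 and an adjusted p of 0.581 in limma.

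Vkorc1, the epoxide reductase that warfarin inhibits, was 130, 174 and 136 FPKM in Con and 140, 165 and 155 FPKM in CR mice at day 25. The values at day 30 were 147, 145 and 130 FPKM in Con and 182, 162 and 136 FPKM in CR mice, with overlap at both days and log2 fold changes of 0.07 and 0.17 (SE 0.14 each). For Vkorc1, 53.6% of the exon bases also lie in the annotated gene Gm21974.

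The initiator of coagulation had the largest fall at day 30 among the 29 genes tested. F3 (tissue factor, chr3:121723537-121735052, plus strand) measured 2.59, 2.44 and 2.21 FPKM in Con and 0.918, 1.43 and 1.055 FPKM in CR mice at day 30. The groups were well apart, and the log2 fold change was -0.68 ± 0.14 (SE, adjusted p = 0.00703 by limma). At these levels a pseudocount of 1 narrows a difference, and with a pseudocount of 0.1 the log2 fold change was -1.04. F3 at day 25 read 2.24, 1.253 and 1.27 FPKM in Con and 0.985, 1.12 and 1.01 FPKM in CR mice. No CR mouse overlapped a Con mouse, but the Con mice were spread, and the log2 fold change of -0.32 ± 0.14 (SE) had an adjusted p of 0.178. F3 rested on 33 to 99 reads per library. Its calls at day 30 and over both days were kept in every other setting and without each of the 12 mice.

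F5, factor V, was 112, 111 and 107 FPKM in Con and 121, 99.9 and 98.5 FPKM in CR mice at day 25. The values at day 30 were 98.0, 101 and 101 FPKM in Con and 80.2, 96.9 and 117 FPKM in CR mice. The CR mice of day 30 were spread around the Con mice, and the log2 fold changes were -0.06 and -0.05 (SE 0.13 each). F8 lay between 1.06 and 2.09 FPKM in all livers, with log2 fold changes of -0.01 and 0.10 (SE 0.14 each). Vwf was 0.309, 0.663 and 0.635 FPKM in Con and 0.645, 0.564 and 0.453 FPKM in CR mice at day 25, then 0.517, 0.374 and 0.409 in Con and 0.537, 0.375 and 0.634 in CR mice at day 30. The arms of Vwf overlapped at both days.

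**Figure D5:**
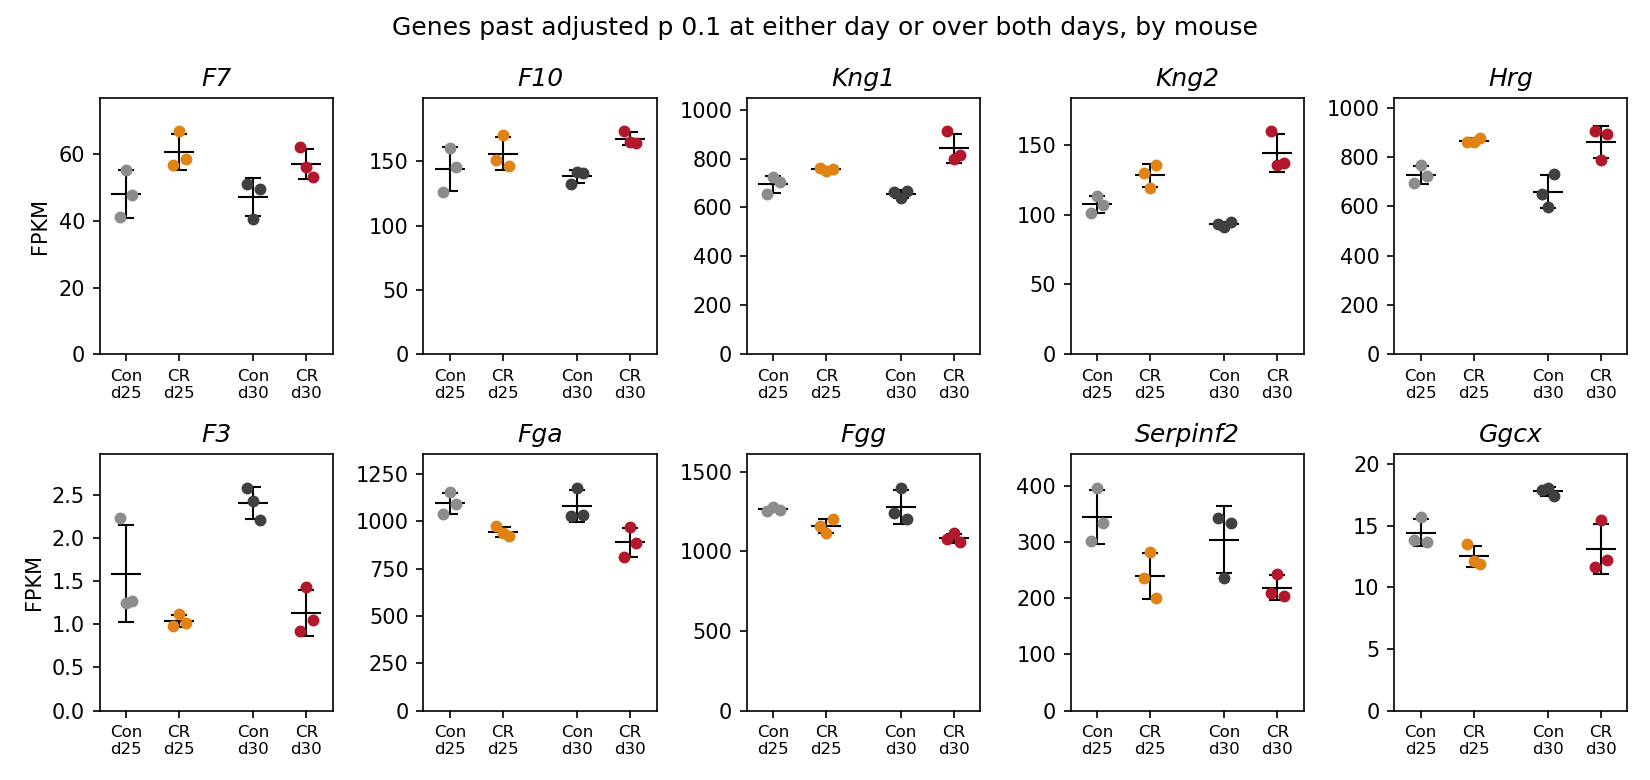
FPKM by mouse of the 10 genes past adjusted p 0.1 at day 25, at day 30 or over both days, with rising genes in the upper row and falling genes in the lower row. Points are mice, and bars the mean and SD of the 3 mice of a group; at day 30 the arms are apart for every gene shown but Serpinf2, where 1 Con mouse lies at 236 FPKM.

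None of the 4 tested anticoagulant genes passed at either day or over both days. In other settings, Serpina10 passed at day 30 with quantile normalization, and over both days Serpinc1 passed with median-ratio scaling and quantile normalization and Serpind1 with TPM, quantile normalization and voom. Serpinc1 measured 769, 905 and 772 FPKM in Con and 801.3, 882 and 896 FPKM in CR mice at day 25, then 829, 710 and 758 in Con and 925, 828 and 783 in CR mice at day 30. The arms overlapped, and the 95% interval of the log2 fold change was -0.17 to 0.33 at day 25 and -0.10 to 0.39 at day 30. Serpind1 (heparin cofactor II), Serpina10 (the protein Z-dependent inhibitor) and Tfpi had log2 fold changes of -0.11, -0.24 and 0.18 at day 30, with adjusted p from 0.262 to 0.507 by limma.

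Thbd, the endothelial receptor that turns thrombin toward protein C, was under the filter but was higher in every CR mouse than in any Con mouse of its day. It measured 0.453, 0.410 and 0.415 FPKM in Con and 0.559, 0.820 and 0.736 FPKM in CR mice at day 25. At day 30 it was 0.407, 0.530 and 0.382 FPKM in Con and 0.762, 0.734 and 1.09 FPKM in CR mice. With the filter lowered to 0.1 FPKM, the log2 fold change was 0.25 ± 0.09 (SE, adjusted p = 0.107 by limma) at day 25 and 0.37 ± 0.09 (SE, adjusted p = 0.0194) at day 30, on 26 to 95 reads per library. The 10 endothelial markers summed to 48.0 to 55.2 FPKM in Con and 62.4 to 69.5 FPKM in CR mice at day 30, and to 50.4 to 73.2 and 64.4 to 74.3 FPKM at day 25. Stab1, Stab2, Clec4g and Flt1, 4 of the 10, rose at day 30 and Stab2 at day 25. The shares of all genes tested that were called higher were 8.33% at day 30 and 5.6% at day 25. The log2 fold changes of the 10 markers ran from -0.25 to 0.40 at day 25 (median 0.16). At day 30 they ran from 0.003 to 0.44 (median 0.32). The part of these markers in the level of Thbd was not tested.

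Markers of other cells also moved with CR. Of 7 hepatocyte markers measured, Alb, Cps1 and Tat rose at day 30 and Tat at day 25. Of all genes tested, 8.33% were called higher at day 30 and 5.6% at day 25. The log2 fold changes of the 7 ran from -0.24 to 1.34 at day 25 (median 0.09) and from -0.23 to 1.69 at day 30 (median 0.18). The 7 markers summed to 47731 to 58269 FPKM in Con and 66593 to 79608 FPKM in CR mice at day 30. At day 25 that sum was 57436 to 65277 FPKM in Con and 63289.6 to 69967 FPKM in CR mice. Of 8 macrophage markers, Clec4f, Csf1r, Vsig4 and Cd5l fell at day 25 and Marco rose at day 30. Among all genes tested, 9.34% were called lower at day 25 and 16.4% at day 30. The log2 fold changes of the 8 ran from -0.82 to 0.37 at day 25 (median -0.56) and from -0.35 to 0.79 at day 30 (median -0.13). These 8 summed to 40.5 to 69.8 FPKM in Con and 26.3 to 34.6 FPKM in CR mice at day 25. At day 30 they summed to 37.0 to 54.1 FPKM in Con and 35.9 to 48.8 FPKM in CR mice. Of 7 stellate cell markers tested, Reln, Dcn and Des rose at day 30 and Reln at day 25. The log2 fold changes of these 7 ran from 0.07 to 0.51 at day 25 (median 0.17) and from 0.05 to 0.46 at day 30 (median 0.31). Of 4 erythroid markers, Alas2 fell at both days, while the globin genes Hba-a1, Hbb-bs and Hbb-bt had log2 fold changes of 0.75, 0.79 and 0.77 at day 30 that did not pass (adjusted p from 0.315 to 0.397 by limma). The erythroid markers summed to 176 to 438 FPKM in Con and 298 to 885 FPKM in CR mice at day 30, and to 263 to 956 and 421 to 554 FPKM at day 25. None of the cholangiocyte, platelet, lymphocyte or neutrophil markers passed, and the platelet, lymphocyte and neutrophil markers were all under the filter. Their part in the changes of the coagulation genes was not tested.

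The change of the CR effect between the days was addressed by the interaction. None of the 29 genes passed an adjusted p of 0.1 in limma, against 0.00944% of all genes, and voom on recovered reads also gave 0. At an unadjusted p under 0.05 there was 1 gene, Kng2, against 3.46% of all genes. So the 1 call at day 25 and the 8 at day 30 are not shown to differ between the days.

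Between day 25 and day 30 within an arm, no gene of the list passed in Con (0% of all genes) or in CR (0.321% of all genes) with limma, nor with voom. At an unadjusted p under 0.05, F3, Cpb2 and Ggcx were higher and F12 and Tfpi lower at day 30 in Con mice, 5 genes of 29 against 7.22% of all genes. In CR mice Plg alone was lower at day 30 at that level (log2 difference -0.27, adjusted p = 0.487 by limma), against 8.66% of all genes.

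Other genes of the system were followed as a wider list. Of 28 further genes of coagulation, fibrinolysis and the kallikrein-kinin system, 18 were tested, of which 1 rose and 3 fell at day 25 and 1 rose and 7 fell at day 30. These are 22.2% of the 18 at day 25 against 14.9% of all genes tested, and 44.4% at day 30 against 24.7%. This list too was chosen with earlier results of these data known, and a difference from the share of all genes was not tested. Procr, Serpina5, Plaur, A2m, Thbs1, Fgl2, F2rl1, Bdkrb2 and Ace were among those under the filter. S100a10, which with annexin A2 holds plasminogen at the cell surface, fell the most. It measured 84.7, 83.3 and 115 FPKM in Con and 32.9, 48.3 and 43.6 FPKM in CR mice at day 25, then 95, 69.6 and 112 in Con and 46.4, 55.4 and 38.5 in CR mice at day 30. All CR mice were below all Con mice, with log2 fold changes of -1.16 ± 0.20 and -0.95 ± 0.20 (SE, adjusted p = 0.00517 and 0.00826 by limma).

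Tfpi2, a Kunitz inhibitor of plasmin and of factor VIIa, fell at both days, by 0.49 and 0.77 on the log2 scale (SE 0.15 each, adjusted p = 0.0636 and 0.00529). Its call at day 25 was lost without Con7, CR7 or CR8 (adjusted p up to 0.198 by limma). That call was also lost with no filter, median-ratio scaling, quantile normalization and when only the 6 mice of the day were fitted. Serpine2, a thrombin inhibitor of the cell surface, fell at day 30, with 5.97, 5.18 and 5.53 FPKM in Con and 2.24, 1.76 and 4.07 FPKM in CR mice (log2 fold change -0.88 ± 0.21 SE, adjusted p = 0.0157 by limma). F2r, the thrombin receptor PAR1, fell at day 30 by 0.83 on the log2 scale (SE 0.26, adjusted p = 0.0466), a call lost without Con11, Con12 or CR10 (adjusted p up to 0.184). The change of Serpine2 at day 25 was 0.06 ± 0.21 (SE), and the difference between the days had an unadjusted p of 0.0082 and did not pass after adjustment.

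Of 5 further vitamin K genes, Aifm2, a vitamin K reductase, rose at both days, and Vkorc1l1, the paralogue of Vkorc1, fell at day 25. Nqo1 and Calu did not pass at either day.

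Of 17 liver transcription factors and genes of interleukin-6 signalling, 4 rose and 3 fell at day 25, and 3 rose and 4 fell at day 30. This is 41.2% at each day against 14.9% and 24.7% of all genes tested. The list was chosen with earlier results of these data known, and its share was not tested against that of all genes. Il6ra, the receptor through which interleukin-6 drives fibrinogen synthesis in the acute phase, measured 15.2, 12.98 and 14.6 FPKM in Con and 25.6, 29.2 and 36.2 FPKM in CR mice at day 30. It rose at both days, with log2 fold changes of 0.90 ± 0.16 and 1.03 ± 0.16 (SE, adjusted p = 0.00481 and 0.00131 by limma). Cebpb rose at both days by a log2 fold change of 0.78 ± 0.16 and 0.71 ± 0.16 (SE, adjusted p = 0.0109 and 0.0104). Cebpa, its hepatocyte relative, fell at day 30 by 0.75 on the log2 scale (SE 0.15, adjusted p = 0.00559) and changed by -0.19 ± 0.15 (SE) at day 25.

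Nr2f2, an orphan nuclear receptor also called COUP-TFII, fell at both days by 0.63 and 0.60 on the log2 scale (SE 0.15 each). Nr0b2, the corepressor SHP, rose at day 25 (log2 fold change 1.02 ± 0.22 SE, adjusted p = 0.0148) and at day 30 changed by 0.50 ± 0.22 (SE, adjusted p = 0.144). A link between the factors and the coagulation genes was not tested.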

How the data were processed

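Liver RNA-Seq of 12 mice was used. The authors mapped 100-base paired-end reads to mm10 with BWA and deposited a table of FPKM. Its header names the HOMER command that produced it, counting on exons and keeping 1 transcript for each gene. CASAVA 1.8.2, FastQC and DESeq2 are also named in the submitters' processing notes. Settings of the aligner and the strand of counting are not given in the sources used here.

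The step between low FPKM values gave back whole reads (100% of 1500 low values per library within 0.05 reads of a whole number), for depth (15748755 to 23345443 reads per library, which limits genes with few reads) and for an alternative count model (voom).

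A pseudocount of 1 was added to the FPKM, log2 was taken, and tests were run in limma 3.58.1 (R 4.3.3). The filter of 1 FPKM in 3 or more libraries left 10593 genes, fitted in a model of the 4 groups with trended empirical Bayes moderation. CR against Con over both days had day as a covariate. P-values were adjusted by Benjamini-Hochberg over all genes tested, 2-sided, with a threshold of 0.1. This scale understates the change of low genes. Python 3.11.15 with pandas 2.3.3, with numpy 2.4.6 and with matplotlib 3.10.9 produced the remaining tables and the plots. Coordinates are those of the table, and overlaps and shared 100-base windows come from GENCODE vM21 of the same build, with the transcript closest in length.

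Replicate numbers are in the labels at day 25. Deviations from the group means correlated at 0.368, 0.306 and 0.106 for the 3 pairs of same-numbered mice. For pairs of unlike number the correlations ran from -0.287 to 0.0134. This pairing was not tested, and a replicate block was fitted at that day as an alternative only. The 3 Con columns of day 30 could be tied to their group but not to single labels.

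The members, gene lists and tests were chosen with earlier results of these data known. All 34 genes are named, and those past the threshold and the most and least abundant of each role have the value of every mouse. Of the other pathway genes past the threshold, those among the 10 with the largest change are named, except what is not reported here. Further pathway genes, ratios and neighbours were named after their values were seen. Alternatives covered the pseudocount, filter, scaling, moderation, samples in the model, threshold, block and each mouse left out.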

Additional observations from a re-analysis of the deposited data

How the results depend on the processing

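Depth limits F3, F8, Tfpi and the 5 genes under the filter. Among the genes called over both days, Kng1, Kng2, F7, F3, Hrg, Serpinf2 and Ggcx kept that call in all alternatives run, while F10, Fga and Fgg lost it in some. No log2 fold change of a called coagulation gene reversed in any alternative. A stricter threshold can only lower a count, and the cause of the other changes below was not tested.

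At day 25, the 1 call of the list became 0 with no filter and at an adjusted p under 0.05, 2 with TPM, voom or the replicate block (F7 and Serpinf2), and 4 with median-ratio scaling (F7, Kng2, Hrg and Serpinf2). At day 30, the 8 calls became 5 when only the 6 mice of the day were fitted and at an adjusted p under 0.05. There were 6 with the filter at 0.1 FPKM or no filter, and 7 with median-ratio scaling, quantile normalization or robust moderation. Voom and moderation without the trend gave 9, and TPM gave 10. Thbd, Fgg, F7 and Serpina10 each entered in some of these settings, and F10, Fga and Serpinf2 each left in some. Past 2-fold at day 30, 0 became 1 (F3) with a pseudocount of 0.1 and with voom. Leaving out each mouse in turn gave 0 to 1 calls at day 25, 3 to 8 at day 30 and 9 to 11 over both days. The 3 calls (Kng2, F3 and Ggcx) were without CR10; without Con9, CR7, Con10, Con12 or CR12 there were 5. For the wider list of other genes it gave 8 to 13 of the 13 calls at day 25 and 12 to 17 beside the 16 at day 30. No gene was called in the interaction or between days without any mouse. Serpine2 at day 25, which was not called, ran from -0.091 (without Con9) to 0.22 (without CR7) and was also below 0 without CR8 (-0.076).

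The replicate block at day 25 changed no other call of a gene of the list. No block was fitted at day 30, because the Con columns carry no replicate number of the labels. Median-ratio scaling moved the share of all calls that were higher from 37.5% to 54.0% at day 25 and from 33.7% to 51.8% at day 30.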
